A study of Mus musculus with 16 samples.

Results

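Dual-alpha cells are T cells from which a pair of productive T cell receptor (TCR) alpha chains and a single productive beta chain were read. They were chosen from the receptor contigs of 8 single-cell libraries as the cell barcodes with exactly 2 productive TRA contigs and exactly 1 productive TRB contig, all of high confidence. The rule gave 547 cells of the 5908 cells with a productive chain, and they carried 261 TRB clonotypes (cells of 1 library with the same beta V, J and CDR3 nucleotides). The 4067 single-alpha cells, with 1 productive TRA and 1 productive TRB contig, are the cells they were set against. Cells infiltrating a liver tumour were taken at day 14 or day 5. The tumour was made by implanting Hepa1-6, a hepatoma line of mouse origin, into the left lobe of the liver of C57BL/6 mice. KO mice had the genotype CD4creMatr3fl/fl and CON mice CD4creMatr3WT/WT, so all carried Cre recombinase under the Cd4 promoter, which is active in developing thymocytes of both the CD4 and the CD8 lineage. Matr3 encodes the nuclear RNA-binding protein matrin 3, and its level was not checked, since contig tables hold receptor chains only. There were 2 libraries in each group. The labels leave it unsaid whether both libraries of a group are from different animals, so the spread that p-values are set against may be technical.

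A thymocyte can rearrange its alpha locus on both chromosomes, and rearrangement goes on until a receptor is positively selected. Successive joins on 1 chromosome pair more distal V segments with more distal J segments. Because alpha lacks the strict allelic exclusion of beta, some mature T cells transcribe a pair of productive alpha chains and can display a pair of receptors that share 1 beta chain. Invariant natural killer T (iNKT) cells are recognised by an alpha chain that joins TRAV11 to TRAJ18, and a cell is called iNKT-type here from that chain alone.

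The CDR3 nucleotides of the largest dual-alpha clonotype of each day 14 library are shown first, because most of these cells at day 14 were members of a few clones. Capitals mark the bases between the V side and the J side, that is, bases outside the stretch shared with at least 20% of the other distinct CDR3s of the same V and of the same J. In KO replicate 2 and CON replicate 2 the largest clonotype had TRBV13-1 joined to TRBJ1-1.
KO day 14 replicate 2, TRAV13N-3 TRAJ50: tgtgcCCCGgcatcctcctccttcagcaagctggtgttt
KO day 14 replicate 2, TRAV6-6 TRAJ43: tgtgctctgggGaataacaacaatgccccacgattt
KO day 14 replicate 2, TRBV13-1 TRBJ1-1: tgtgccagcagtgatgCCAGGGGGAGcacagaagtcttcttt
CON day 14 replicate 2, TRAV7D-5 TRAJ50: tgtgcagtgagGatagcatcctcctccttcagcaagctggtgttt
CON day 14 replicate 2, TRAV6-6 TRAJ43: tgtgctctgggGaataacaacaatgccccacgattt
CON day 14 replicate 2, TRBV13-1 TRBJ1-1: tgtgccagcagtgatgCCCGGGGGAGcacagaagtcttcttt
KO day 14 replicate 1, TRAV14D-2 TRAJ34: tgtgcagccaacaaagtcgtcttt
KO day 14 replicate 1, TRAV5-1 TRAJ27: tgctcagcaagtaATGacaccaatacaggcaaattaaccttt
KO day 14 replicate 1, TRBV12-1 TRBJ2-5: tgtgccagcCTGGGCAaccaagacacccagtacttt
CON day 14 replicate 1, TRAV6-4 TRAJ39: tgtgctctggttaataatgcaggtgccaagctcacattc
CON day 14 replicate 1, TRAV16D-DV11 TRAJ40: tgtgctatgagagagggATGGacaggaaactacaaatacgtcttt
CON day 14 replicate 1, TRBV17 TRBJ1-1: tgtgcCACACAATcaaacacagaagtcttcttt

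In KO and CON replicate 2 the TRAJ43 alpha chain was the same base for base. The beta chains of these clonotypes differed by 1 base, A19C, counted from 1 at the 5′ end of the CDR3 and with the base of the KO clonotype first, and they encoded the same residues. The TRAJ50 alpha chains differed in V segment and in length, 39 bases in KO and 45 bases in CON. The largest clonotypes of KO and CON replicate 1 at day 14 shared neither alpha nor beta segments with these, apart from TRBJ1-1 in CON replicate 1.

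Every library held dual-alpha cells. At day 14 the KO libraries held 43 and 97 of them and the CON libraries 144 and 134. At day 5 the KO libraries held 22 and 30 and the CON libraries 35 and 42. As a share of dual-alpha plus single-alpha cells this was 9.33% (exact 95% binomial interval 6.83 to 12.4) and 17.4% (14.4 to 20.8) in KO at day 14, and 12.7% (10.8 to 14.8) and 19.6% (16.7 to 22.7) in CON at day 14. At day 5 it was 5.57% (3.52 to 8.31) and 8.29% (5.66 to 11.6) in KO, and 8.01% (5.64 to 11.0) and 7.20% (5.24 to 9.61) in CON. All 4 day 14 libraries lay above all 4 day 5 libraries, while KO and CON libraries overlapped on both days. The intervals cover counting error only and treat each cell as an independent draw. At day 14 a single clonotype held 53 of the 97 dual-alpha cells of KO replicate 2. The largest clonotype held 75 of 144 in CON replicate 1 and 101 of 134 in CON replicate 2. Cells of a clonotype are not independent, so these intervals are too narrow.

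Over KO and CON together the share averaged 14.8% ± 4.61 at day 14 against 7.27% ± 1.22 at day 5 (SD, 4 libraries a day), a difference of 7.48 points. An exact permutation of day labels within genotype gave p = 0.0556, the smallest the design allows, and 0.0667 after Benjamini-Hochberg adjustment over 6 measures. KO minus CON was -1.72 points over both days (exact permutation p = 0.5), -2.76 points at day 14 and -0.68 points at day 5, where 2 libraries against 2 cannot give a p below 0.333. The difference between days in KO minus CON was -2.08 points (exact permutation p = 0.611).

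The day difference in cells was smaller once 1 clonotype was left out of each library. Without the largest dual-alpha clonotype of each library the shares were 8.37% and 9.28% in KO and 6.65% and 6.11% in CON at day 14, against 5.33% and 8.03% in KO and 7.80% and 6.88% in CON at day 5. The day difference was then 0.59 points (exact permutation p = 0.667), KO libraries lay above CON libraries at day 14, and KO minus CON over both days was 0.89 points (exact permutation p = 0.333). These clonotypes were picked by their number of dual-alpha cells, after seeing the data. They held 5 and 53 such cells in KO and 75 and 101 in CON at day 14, and 1 and 1 in KO and 1 and 2 in CON at day 5. The changes after their removal were thus largely set by that choice, and how much single clones contributed to the day difference was not tested.

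Counted as TRB clonotypes, each once, dual-alpha cells were found in 11.5% (exact 95% binomial interval 7.76 to 16.2) and 8.70% (5.86 to 12.3) of clonotypes in KO at day 14, and in 10.4% (7.85 to 13.5) and 10.1% (6.92 to 14.1) in CON at day 14. At day 5 they were found in 5.70% (3.61 to 8.50) and 8.40% (5.74 to 11.8) in KO, and in 8.27% (5.83 to 11.3) and 7.29% (5.21 to 9.87) in CON. The day 14 mean was 10.2% ± 1.15 against 7.42% ± 1.25 for day 5 (SD, 4 libraries a day), and the difference of 2.76 points had the smallest exact permutation p the design allows, 0.0556. KO minus CON was -0.46 points (exact permutation p = 0.556). When cells with an iNKT-type chain were left out, day 14 exceeded day 5 by 1.02 points for clonotypes (exact permutation p = 0.389). For cells the excess was then 5.86 points (exact permutation p = 0.111). Such a chain was in 30.9% of single-alpha cells at day 5 and 4.29% at day 14 (library means). A clonotype was counted if any of its cells was dual-alpha, so larger clonotypes had more chances to be counted. How far cell type and clone size each set the day difference was not tested.

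The number of molecules read per cell also differed between days, and shares were taken again after thinning. Single-alpha cells had a median of 4 or 5 TRA UMIs (counted molecules) in the day 14 libraries and 3 or 4 in the day 5 libraries. After each cell was thinned to 4 TRA UMIs, which left out 144 to 371 shallower cells per library, the share was 12.0% and 23.1% in KO and 15.6% and 22.5% in CON at day 14, against 8.59% and 11.4% in KO and 11.5% and 9.73% in CON at day 5. The thinned day difference was 8.01 points for cells and 3.58 points for clonotypes, each with an exact permutation p of 0.0556. Cells were kept by TRA UMIs summed over their alpha chains, a sum that is higher in dual-alpha cells by construction, and every library's share rose. What the number of molecules contributed to the day difference was not tested.

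**Figure D1:**
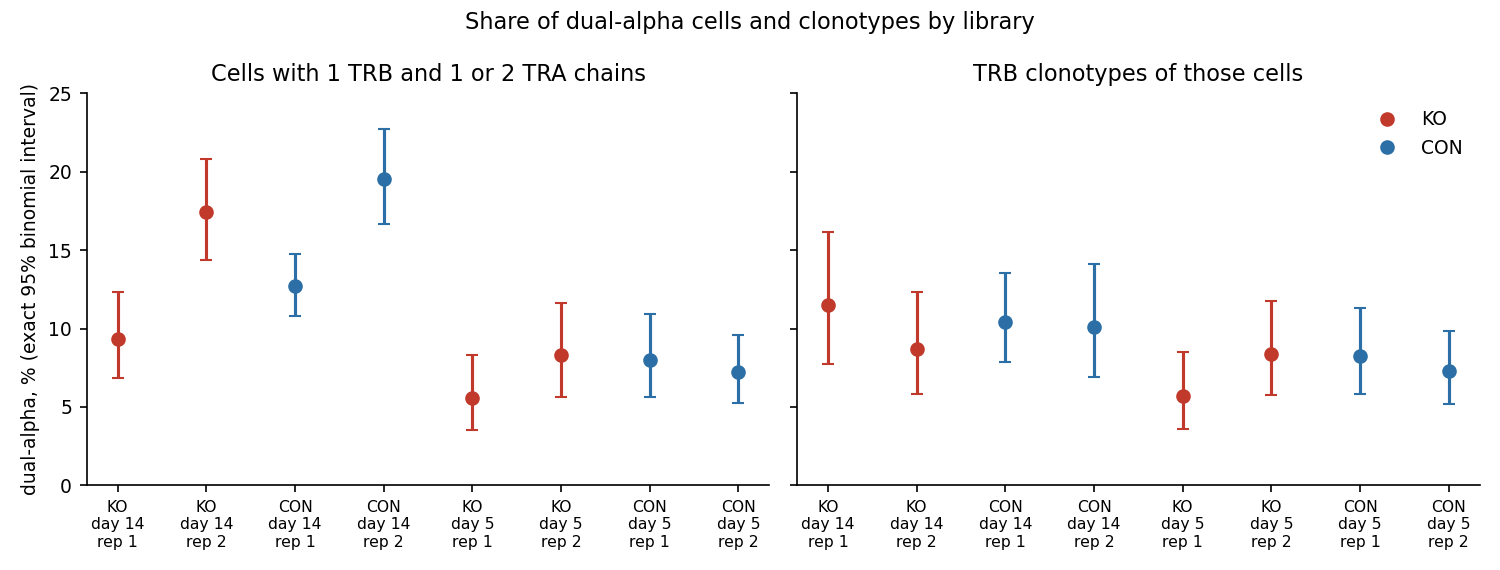
Share of dual-alpha cells among cells with 1 TRB and 1 or 2 TRA chains (left) and among their TRB clonotypes (right), in percent, for each of the 8 libraries; points are single libraries and bars exact 95% binomial intervals. The bars on the left treat cells as independent draws and are too narrow where a clone is large. Day 14 libraries reach 9.33% to 19.6% of cells but 8.70% to 11.5% of clonotypes, and day 5 libraries lie at 5.57% to 8.29% of cells.

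Dual-alpha and single-alpha cells alike had a higher mean share in expanded clones at day 14 than at day 5. Of the dual-alpha cells, 53.5% and 79.4% in KO and 77.1% and 85.1% in CON belonged to expanded TRB clonotypes (2 or more cells) at day 14. At day 5 these were 0 of 22 and 0 of 30 cells in KO, which allow a share of up to 13.6% and 10.0%, and 0 of 35 cells (up to 8.57%) and 19.0% in CON. The mean over 4 libraries was 73.8% ± 13.9 at day 14 against 4.76% ± 9.52 at day 5 (SD), a difference of 69.0 points (exact permutation p = 0.0556). In single-alpha cells the expanded share was 59.7% ± 7.65 at day 14 against 7.70% ± 5.73 at day 5 (SD, 4 libraries a day). Within libraries the expanded share of dual-alpha minus single-alpha cells was 5.58 points (exact sign-flip permutation p = 0.32, higher in 4 of 8 libraries).

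The 3 largest clones held 229 dual-alpha cells, 41.9% of all of them and 54.8% of the 418 at day 14. The clonotype of KO replicate 2 had 53 dual-alpha, 30 single-alpha and 3 cells with no productive alpha chain. The corresponding clonotype of CON replicate 2 had 101, 44 and 5, and that of CON replicate 1 had 75, 22 and 4. The KO replicate 1 clonotype printed above had 5 dual-alpha and 2 single-alpha cells.

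In these clones the missing alpha chain of single-alpha cells was usually the one with fewer UMIs. In KO replicate 2 the dual-alpha cells had a median of 7 UMIs of TRAV13N-3/TRAJ50 and 4 of TRAV6-6/TRAJ43, and of the single-alpha cells 29 had the TRAJ50 chain and 1 the TRAJ43 chain. In CON replicate 2 the medians were 7 UMIs of TRAV7D-5/TRAJ50 and 4 of TRAV6-6/TRAJ43, and 35 single-alpha cells had the TRAJ50 chain and 9 the TRAJ43 chain. In CON replicate 1 the medians were 9 UMIs of TRAV6-4/TRAJ39 and 6 of TRAV16D-DV11/TRAJ40, and 17 single-alpha cells had the TRAJ39 chain and 5 the TRAJ40 chain. Thus all 96 single-alpha cells of the 3 clones carried one of the clone's own pair.

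Alpha pairs did not vary among the dual-alpha cells of a TRB clonotype. All 36 TRB clonotypes with 2 or more dual-alpha cells, 322 cells in all, held one and the same alpha pair in each of those cells, down to the nucleotides of both CDR3s. Of these clonotypes 32 were from day 14 and 4 from day 5. The other 225 clonotypes had a single dual-alpha cell, and 214 of them had no other cell.

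In most large clones either no dual-alpha cell was read or many were. Among 86 TRB clonotypes of 5 or more cells, 72 had no dual-alpha cell among 825 cells with 1 or 2 alpha chains. They were set apart by that count, so it puts no limit on their share. Some of the 72 had as few as 1 such cell. In 11 others dual-alpha cells made up 40% to 100% of the cells with 1 or 2 alpha chains, in 1 they made up 30.8%, and in 2 they made up 2.25% and 16.7%. In the 3 largest clones the share was 63.9% (exact 95% binomial interval 52.6 to 74.1) in KO replicate 2, 69.7% (61.5 to 77.0) in CON replicate 2 and 77.3% (67.7 to 85.2) in CON replicate 1. Clonotypes with a dual-alpha cell were 7 of 28 in KO and 7 of 51 in CON at day 14, and 0 of 1 in KO and 0 of 6 in CON at day 5.

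**Figure D2:**
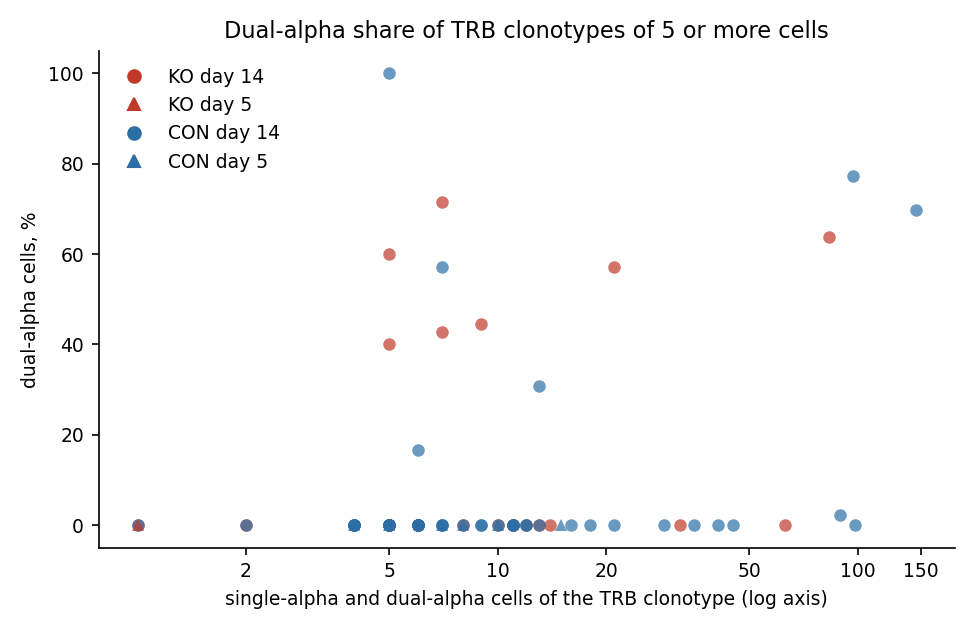
Share of dual-alpha cells, in percent, against the number of dual-alpha plus single-alpha cells on a log axis, for the TRB clonotypes of 5 or more cells; each point is a clonotype, red for KO and blue for CON, circles for day 14 and triangles for day 5. Most points lie at 0, and the 3 large clones at 63.9%, 69.7% and 77.3% stand apart from clones of like size at or near 0.

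The clonotype at 2.25% (exact 95% binomial interval 0.273 to 7.88) held cells with different alpha chains behind 1 beta nucleotide sequence. It was from CON replicate 1 at day 14, joined TRBV5 to TRBJ2-7, and was picked out after its values were seen. Its 2 dual-alpha cells had TRAV7N-6/TRAJ22 and TRAV9D-2/TRAJ22, while all its 87 single-alpha cells had another TRAV7N-6/TRAJ22 chain. The pair, the chain of the single-alpha cells and their common beta chain are shown to compare them.
Dual-alpha cells, TRAV7N-6 TRAJ22: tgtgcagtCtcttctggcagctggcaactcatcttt
Dual-alpha cells, TRAV9D-2 TRAJ22: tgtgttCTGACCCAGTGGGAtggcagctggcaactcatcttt
Single-alpha cells, TRAV7N-6 TRAJ22: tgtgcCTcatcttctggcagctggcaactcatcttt
All cells, TRBV5 TRBJ2-7: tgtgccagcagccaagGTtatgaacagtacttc

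Of the 253 single-alpha cells in clonotypes with a dual-alpha cell, 157 carried one of the clonotype's pair, and 87 of the 96 that did not were in this TRBV5 clonotype.

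Further alpha rearrangements were rarely listed beside a productive pair, in a data set where 12 of 5231 cells with a TRA contig listed 3 TRA rearrangements of any kind. A non-productive TRA contig beside the productive ones was listed in 2 of 547 dual-alpha cells (0.366%) and in 1233 of 4067 single-alpha cells (30.3%). The rule had already taken up 2 TRA contigs in each dual-alpha cell, so this difference is a description, with no test. In the 3 largest clones 7 of 96 single-alpha cells had a non-productive TRA contig. In the other clonotypes with a dual-alpha cell 44 of 157 had one, 34 of these in the TRBV5 clonotype shown above. In expanded clonotypes without a dual-alpha cell 515 of 1370 single-alpha cells (37.6%) had one. These sets were formed by their dual-alpha cells, so this too is a description with no test.

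Some beta chains recurred across libraries with 1 alpha chain in common and another that differed. Of 253 beta residue sequences of dual-alpha cells, 9 were found in 2 or more libraries, in 17 dual-alpha clonotypes. In 14 of the 17, exactly 1 of the alpha chains had the V and J of a chain paired with the same beta residues in another library, in 12 of them with the same alpha residues. In none did both alpha chains recur, and in 3 neither did. For comparison, 34 of 70 single-alpha clonotypes without an iNKT-type chain whose beta recurred (48.6%) had an alpha V and J that recurred with it. A dual-alpha clonotype has a pair of chains that can match, so these shares are not on the same footing.

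The TRBV13-1 receptor printed first was one of the 9. Its beta residues were found in 86 cells of KO replicate 2 and 151 cells of CON replicate 2 at day 14, and in no cell of the other 6 libraries. The TRAV6-6/TRAJ43 chain accompanied it in 54 and 111 of those cells, and was in no cell with another beta chain. A TRBV5/TRBJ2-7 beta chain was found in 2 and 24 cells of KO and 112 and 3 cells of CON at day 14, with 1 and 1 dual-alpha cells in KO and 8 and 1 in CON. TRAV7-6/TRAJ22 was a member of the alpha pair in each of these 4 libraries, and its partner in each library was found in none of the other 3.

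A pair of single cells from different days carried a TRBV1 receptor of this kind, with the same beta and TRAJ22 nucleotides in KO replicate 2 at day 14 and CON replicate 2 at day 5. Their chains are shown because everything but the other alpha chain was shared.
Both cells, TRBV1 TRBJ2-3: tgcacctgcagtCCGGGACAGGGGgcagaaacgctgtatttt
Both cells, TRAV7D-2 TRAJ22: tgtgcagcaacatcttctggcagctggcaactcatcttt
KO day 14 replicate 2, TRAV7D-3 TRAJ40: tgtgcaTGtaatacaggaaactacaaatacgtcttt
CON day 5 replicate 2, TRAV1 TRAJ26: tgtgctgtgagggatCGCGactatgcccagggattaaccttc

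In most dual-alpha cells both alpha chains had more than 1 UMI. Cells entered only if both chains were listed as productive and of high confidence, so cells with a fainter chain may be missing. The chain with more UMIs had a median of 7 and the other a median of 4. Their ratio had a median of 1.67 (quartiles 1.33 and 2.33) and a maximum of 7.33. In 13.2% of cells the chains had equal UMIs, in 69.1% the ratio was at most 2, and in 3.84% it was above 4. In 28 cells (5.12%) the lower chain had 1 UMI. The mean log2 ratio was 0.82 and 0.88 in KO and 0.87 and 0.83 in CON at day 14, against 0.78 and 0.72 in KO and 0.65 and 0.92 in CON at day 5. Day 14 minus day 5 was 0.08 (exact permutation p = 0.278) and KO minus CON -0.02 (p = 0.833).

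**Figure D3:**
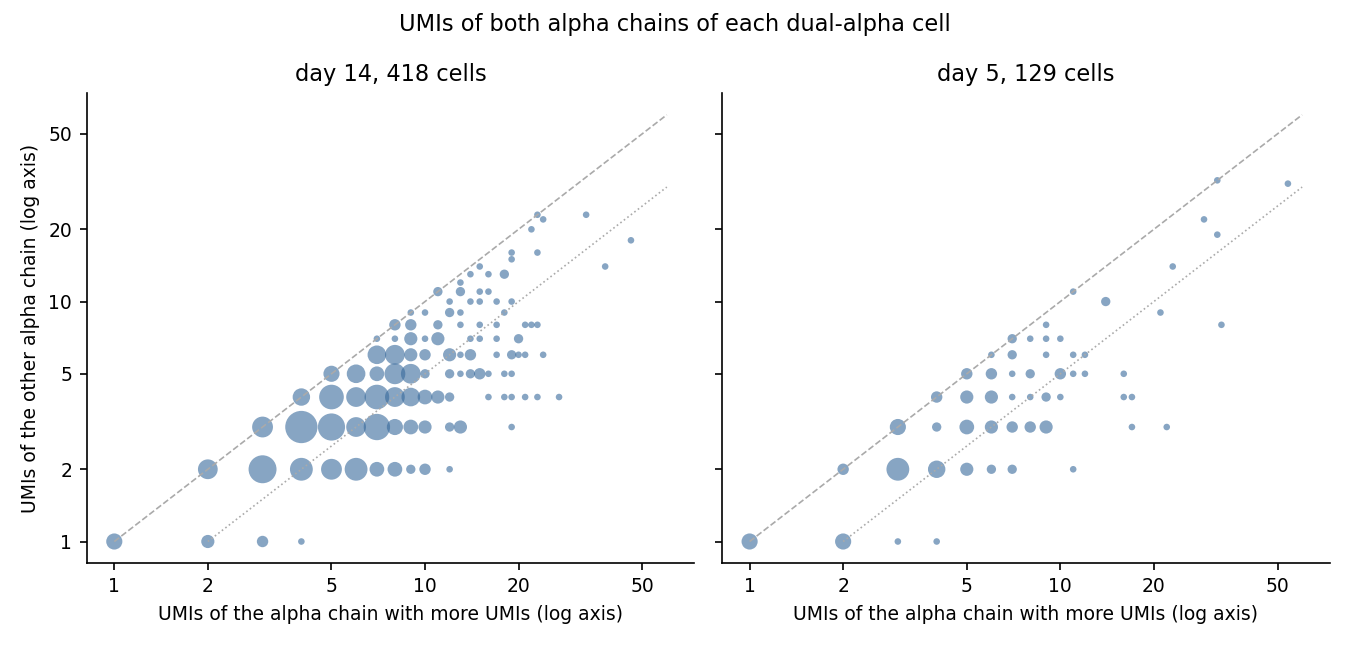
UMIs of the alpha chain with more UMIs (x, log axis) and of the other alpha chain (y, log axis) in dual-alpha cells at day 14 (left, 418 cells) and day 5 (right, 129 cells); point area grows with the number of cells. The dashed line marks equal UMIs and the dotted line a ratio of 2, and 69.1% of all cells lie on or between them.

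Total TRA UMIs were higher by construction, with 12.2 ± 1.81 in dual-alpha and 5.46 ± 0.888 in single-alpha cells (mean of library means ± SD, n = 8). TRB UMIs, which the rule did not use beyond the presence of 1 chain, were 20.9 ± 8.72 in dual-alpha and 13.6 ± 1.51 in single-alpha cells. They were higher in dual-alpha cells in 6 of 8 libraries (exact sign-flip permutation p = 0.0547, adjusted 0.0656 over 6 tests). With each TRB clonotype counted once the mean difference was 2.85 UMIs in place of 7.30.

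The J segments of a pair lay close together on the locus. Of the TRAJ segments, which run over 63.8 kb of mouse chromosome 14 (GRCm38) from TRAJ61 next to the V segments at 54155005 to TRAJ1 at 54218814, 42 were used by dual-alpha cells. The mean distance between the J segments of a clonotype's pair was 6.47 and 9.94 kb in KO and 8.53 and 9.13 kb in CON at day 14, and 8.24 and 9.14 kb in KO and 8.71 and 8.54 kb in CON at day 5. Between alpha chains of different clonotypes of the same library it was 19.2 and 16.6 kb in KO and 14.7 and 14.2 kb in CON at day 14, and 13.8 and 15.1 kb in KO and 16.1 and 14.8 kb in CON at day 5. The 2 sets of values did not overlap.

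The mean was 8.59 kb ± 1.00 within a cell and 15.6 kb ± 1.75 between cells (SD, n = 8). The difference of -6.99 kb was lower within a cell in 8 of 8 libraries (exact sign-flip permutation p = 0.00781, adjusted 0.0234 over 6 tests). Over all 261 pairs the median J distance was 6.81 kb, or 7 segments, against 13.0 kb between cells. Pairs within 5 kb made up 36.4% within and 21.7% between cells, and pairs with the same J 5.36% within and 3.41% between cells. The Spearman rank correlation between the J positions of the pair was 0.64 over 261 clonotypes and 0.68 over the 245 without an iNKT-type chain, as a description of clonotypes that share libraries. It was 0.53 to 0.87 within the 8 libraries.

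V segments of a pair were closer too, but less so. Their mean distance was 348 kb ± 51.6 within a cell and 401 kb ± 28.9 between cells (SD, n = 8), a difference of -52.9 kb, lower in 7 of 8 libraries (exact sign-flip permutation p = 0.0156, adjusted 0.0313). Each V was placed at the copy named in its contig, and copies of the duplicated locus cannot be told apart with certainty from the contigs. Such copies can lie far apart, as TRAV7D-5 at 52835861 and TRAV7-5 at 53530786, so the V distances are uncertain. With each cell counted, so that large clones weigh by their size, the V difference was -28.1 kb (adjusted p = 0.445 in the exact sign-flip permutation). Its adjusted exact permutation p was 0.0563 without KO replicate 1 at day 14 or KO replicate 2 at day 5, and 0.0625 without KO replicate 2 or CON replicate 1 at day 14 or CON replicate 1 at day 5.

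**Figure D4:**
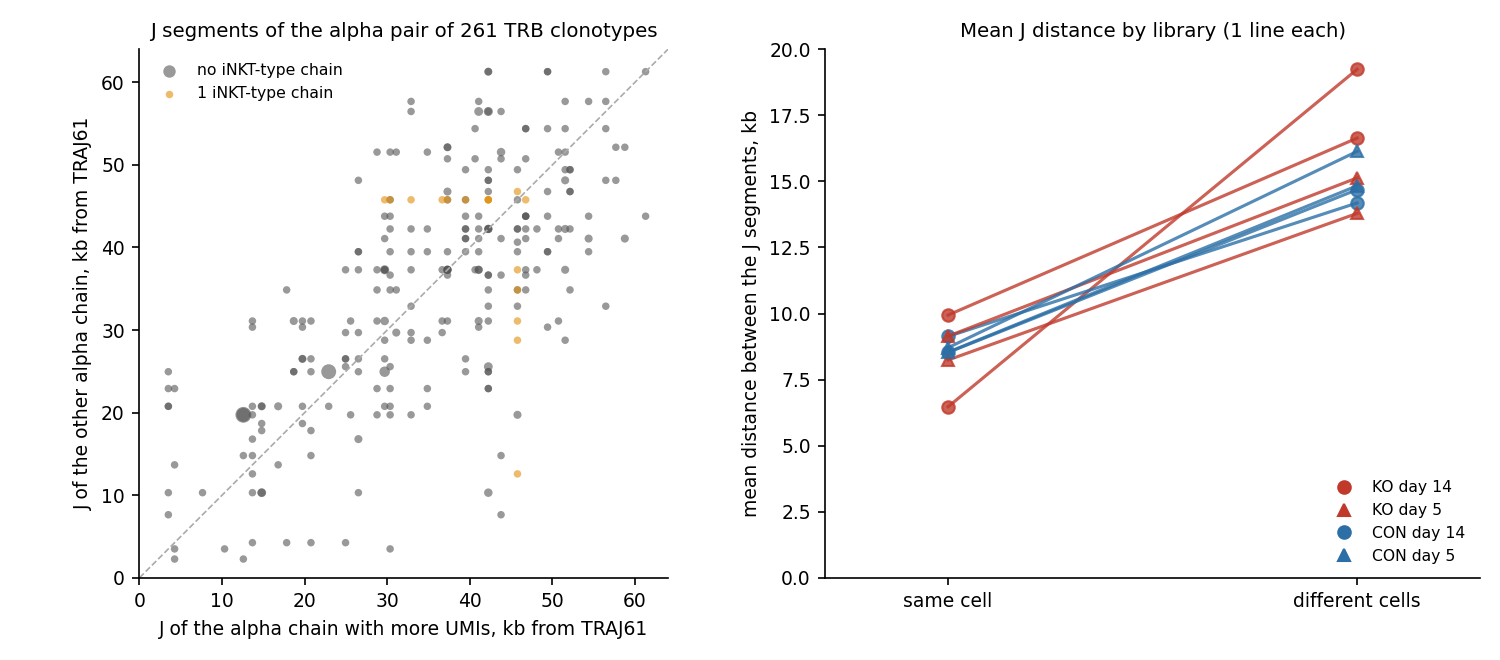
Left, J positions in kb from TRAJ61 of the alpha chain with more UMIs (x) and of the other chain (y) for 261 TRB clonotypes; point area grows with the number of dual-alpha cells, orange points have an iNKT-type chain, and the dashed line marks equal positions. Right, mean J distance in kb within a cell and between cells of different clonotypes, 1 line for each library; all 8 lines are lower within a cell, at 6.47 to 9.94 kb against 13.8 to 19.2 kb.

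Averaged over cells, the pair's mean position lay nearer the V side, at 31.3 kb ± 6.29 from TRAJ61 in dual-alpha and 36.7 kb ± 1.93 in single-alpha cells (SD, n = 8). The difference of -5.34 kb was lower in 7 of 8 libraries (exact sign-flip permutation p = 0.0234, adjusted 0.0352). It no longer passed in some alternatives: it was -1.58 kb with each TRB clonotype counted once (adjusted p = 0.115) and -3.62 kb without iNKT-type cells (adjusted p = 0.176). The adjusted exact permutation p was 0.0563 without KO replicate 1 at day 14 or KO replicate 2 at day 5, and 0.0703 without KO replicate 2, CON replicate 1 or CON replicate 2 at day 14 or CON replicate 1 at day 5. J distance per cell was 6.95 kb ± 1.20 at day 14 against 8.64 kb ± 0.386 at day 5 (SD, 4 libraries a day), a difference of -1.69 kb (exact permutation p = 0.0556). The difference was -0.14 kb with each clonotype counted once.

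Alpha pairs were diverse. Among 261 clonotypes there were 195 J pairs, 145 of them seen once, and 212 V pairs, 168 of them seen once. The most frequent J pair was TRAJ18 with TRAJ22, in 5 clonotypes of 4 libraries, followed by TRAJ27 with TRAJ27 in 4 clonotypes. TRAJ18 with TRAJ26, TRAJ18 with TRAJ27 and TRAJ23 with TRAJ26 were among several J pairs in 3 clonotypes. The most frequent V pairs, each in 3 clonotypes, were TRAV12-2 with TRAV3-3, TRAV3-3 with TRAV6-6, TRAV6-5 with TRAV9-1, TRAV7-5 with TRAV7-5 and TRAV12-2 with TRAV13-1. The largest dual-alpha clonotypes at day 5 were 4 of 2 cells each, all in CON replicate 2, and one of them had TRAV7-5/TRAJ23 and TRAV13D-4/TRAJ27. In the other day 5 libraries every dual-alpha clonotype had 1 dual-alpha cell.

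Segment use was compared between 522 alpha chains of dual-alpha and 2776 of single-alpha clonotypes, each distinct chain once, with edgeR's quasi-likelihood test and the library as a block. Of 85 TRAV and TRAJ segments 5 passed an adjusted p of 0.05 (5.88%), 3 higher (3.53%) and 2 lower (2.35%) in dual-alpha cells. The 2 lower segments were those of the iNKT-type chain. Both chains of a dual-alpha clonotype were counted, and no dual-alpha cell had a pair of iNKT-type chains. A lower share of these segments among chains of dual-alpha cells was thus in part set by the counting. TRAV11 made up 4.70% ± 2.43 of chains in dual-alpha and 20.1% ± 12.9 in single-alpha cells (SD, n = 8; log2 fold change -2.01 ± 0.24 SE, edgeR adjusted p = 2.54e-14), and TRAJ18 5.63% ± 3.78 and 21.0% ± 12.8 (-1.86 ± 0.23, adjusted p = 6.62e-14). Without iNKT-type cells these were 1.94 and 0.92 (edgeR adjusted p = 0.314 and 0.907).

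The higher segments were rare. TRAV13-3 was in 10 of 522 chains of dual-alpha and 4 of 2776 chains of single-alpha cells, with 2.08% ± 1.73 and 0.151% ± 0.230 per library (SD, n = 8). It was higher in dual-alpha cells in 6 of 8 libraries. The edgeR log2 fold change was 3.40 ± 0.77 (SE, adjusted p = 0.000316), and TRAV13-3 passed in each alternative in which its copies were merged. With the copies kept apart it was not tested as such, and the only segments that passed were TRAV11 and TRAJ18. Its copies include the TRAV13N-3 chain of the largest KO clone, and 8 of its 10 clonotypes had a single dual-alpha cell. TRAV13-3 was on the chain with more UMIs in 5 clonotypes, on the other in 4 and on a chain of equal UMIs in 1.

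TRAV15-1 was in 8 chains of dual-alpha and 6 of single-alpha cells (log2 fold change 2.53 ± 0.77 SE, edgeR adjusted p = 0.021). It was on the chain with fewer UMIs in 5 of 8 clonotypes. TRAJ35 was in 11 chains of dual-alpha and 10 of single-alpha cells (2.32 ± 0.71, edgeR adjusted p = 0.021). DESeq2 called TRAV11, TRAJ18 and TRAV13-3 but neither TRAV15-1 (adjusted p = 0.351) nor TRAJ35 (0.325). The edgeR call of TRAV15-1 was lost without CON replicate 1 at day 5 (adjusted p = 0.168) or KO replicate 2 at day 5 (0.402). That of TRAJ35 was lost without KO replicate 1 at day 14 or any one of the 4 day 5 libraries (adjusted p = 0.0706 to 0.134). TRAV7-5 was next, in 25 of 522 chains of dual-alpha and 57 of 2776 of single-alpha cells (1.16 ± 0.43, edgeR adjusted p = 0.108; 0.0304 without KO replicate 2 at day 14).

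Among dual-alpha cells no segment passed between days or genotypes. Of 50 segments tested 0 (0.0%) were called for day 14 against day 5 by edgeR, with 4 at an unadjusted p under 0.05, and 0 by DESeq2. The smallest p were those of TRAJ30 (log2 fold change -1.95 ± 0.80 SE), TRAV4-3 (2.10 ± 0.91), TRAJ27 (1.19 ± 0.56), TRAJ18 (-1.23 ± 0.59), TRAJ26 (-1.25 ± 0.68) and TRAV9-3 (-1.55 ± 0.91), each with an edgeR adjusted p of 0.479 or 0.648. For KO against CON 0 of 50 (0.0%) were called, with 0 at an unadjusted p under 0.05 and 0 by DESeq2. The 6 smallest p were those of TRAJ22, TRAV12-3, TRAJ39, TRAJ31, TRAV6-7 and TRAV7-2, with log2 fold changes between -1.26 and 1.19 and an edgeR adjusted p of 0.817. TRAJ22, for one, was -0.75 ± 0.45 (SE).

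iNKT-type chains were under-represented among dual-alpha cells. A TRAV11/TRAJ18 chain was found in 2.33% and 0% (0 of 97 cells, up to 3.09%) of dual-alpha cells in KO and 1.39% and 0.746% in CON at day 14, and in 4.55% and 13.3% in KO and 8.57% and 9.52% in CON at day 5, with upper exact 95% binomial limits of 3.73% to 30.7%. Among single-alpha cells it was in 3.83% and 6.52% in KO and 3.54% and 3.27% in CON at day 14, and in 31.4% and 33.4% in KO and 31.3% and 27.5% in CON at day 5. The mean was 5.05% ± 4.87 in dual-alpha and 17.6% ± 14.4 in single-alpha cells (SD, n = 8). The difference of -12.6 points was lower in dual-alpha cells in 8 of 8 libraries (exact sign-flip permutation p = 0.00781, adjusted 0.0234). Among dual-alpha cells the share at day 14 minus that at day 5 was -7.88 points (exact permutation p = 0.0556).

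Turned round, dual-alpha cells were 1 of 17 (5.88%) and 0 of 30 (up to 10.0%) iNKT-type cells of the KO libraries and 2 of 37 (5.41%) and 1 of 19 (5.26%) of the CON libraries at day 14. For day 5 they were 1 of 118 (0.847%) and 4 of 115 (3.48%) in KO, and 3 of 129 (2.33%) and 4 of 153 (2.61%) in CON. Over the 8 libraries this was 3.23% ± 2.18 of iNKT-type cells and 12.3% ± 4.56 of other cells (SD, n = 8; exact sign-flip permutation p = 0.00781, lower in 8 of 8). Both kinds of cell were also compared at an equal 4 TRA UMIs by thinning. The shares were then 5.91% ± 6.04 and 15.9% ± 4.94, lower in 7 of 8 libraries (exact sign-flip permutation p = 0.0234). The exception was KO replicate 1 at day 14, where 4 iNKT-type cells were left. Here too cells were kept by summed TRA UMIs, which favours dual-alpha cells.

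**Figure D5:**
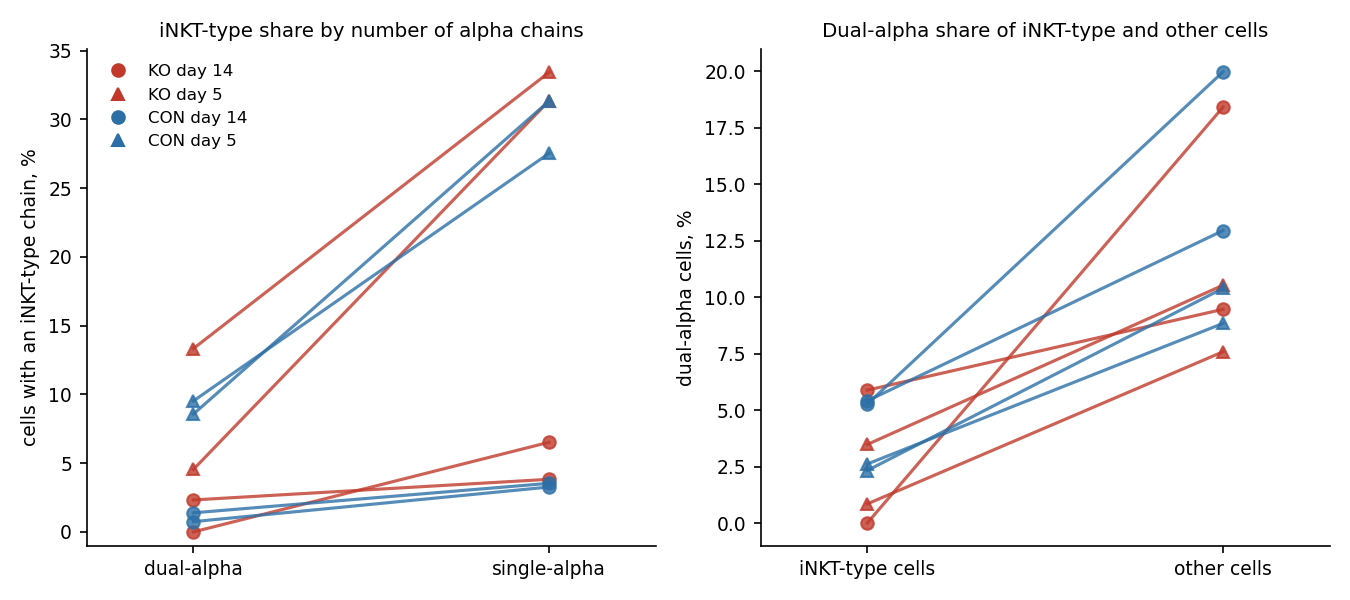
Left, share of cells with an iNKT-type alpha chain among dual-alpha and single-alpha cells, in percent; right, share of dual-alpha cells among iNKT-type and other cells, in percent. Each line is a library, red for KO and blue for CON, circles for day 14 and triangles for day 5, and all 8 lines are lower on the left side of each panel.

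There were 16 dual-alpha cells with an iNKT-type chain, 12 from day 5 and 4 from day 14, and each was the only cell of its TRB clonotype. The one with the most TRA UMIs was from CON replicate 1 at day 5, with 14 UMIs of a TRAV6-1 chain and 10 of the TRAV11 chain, and its chains are shown because the iNKT-type one has no base outside the V and J sides.
CON day 5 replicate 1, TRAV11 TRAJ18: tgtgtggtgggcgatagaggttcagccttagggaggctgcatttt
CON day 5 replicate 1, TRAV6-1 TRAJ22: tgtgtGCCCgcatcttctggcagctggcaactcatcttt
CON day 5 replicate 1, TRBV12-2+TRBV13-2 TRBJ2-7: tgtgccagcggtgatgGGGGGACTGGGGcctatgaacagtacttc

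In these 16 cells the iNKT-type chain had more UMIs than its partner in 2, the same in 5 and fewer in 9. The partner's J lay on the V side of TRAJ18 in 14 cells and beyond it in 2, both of which used TRAJ17. TRAJ18 lies 45.8 kb from TRAJ61 in a stretch of 63.8 kb, so most J segments are on its V side in any case. Whether the partners differ in this from other alpha chains was not tested. The median distance of the partner's J from TRAJ18 was 8.80 kb and the largest 33.2 kb, a TRAJ50 partner in CON replicate 2 at day 5. The partner was itself a TRAV11 chain in 2 cells, joined to TRAJ17 and TRAJ26. No cell had a pair of iNKT-type chains, and none had a chain of the mucosal-associated invariant T type (TRAV1 joined to TRAJ33; 0 of 547, which allows a share of up to 0.548%). Beta segments were counted from a chosen set: TRBV13-1, TRBV13-2, TRBV13-3, TRBV29 and the joint name TRBV12-2+TRBV13-2. The set may not hold every beta segment of iNKT cells, and the joint name does not tell TRBV12-2 from TRBV13-2. The beta chain was of this set in 14 of 16 (87.5%), with the joint name in 8. This share was 40.5% in other dual-alpha cells, 87.5% in single-alpha iNKT-type cells and 20.4% in other single-alpha cells. Without the 2 large TRBV13-1 clones, left out after seeing the data, it was 16.2% in other dual-alpha cells and 18.7% in other single-alpha cells. At day 5 it was 91.7% and 23.9% in dual-alpha cells with and without the iNKT-type chain.

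Barcodes with 2 beta chains, a sign of doublets, were found in every library. There were 16 cells with 2 TRA and 2 TRB chains and 157 with 1 TRA and 2 TRB chains, and no cell had 3 or more productive TRA chains. At day 14 those with 1 TRA chain numbered 11 and 15 in KO and 50 and 11 in CON, against 43, 97, 144 and 134 dual-alpha cells. At day 5 they numbered 19 and 12 in KO and 15 and 24 in CON, against 22, 30, 35 and 42 dual-alpha cells. The share of doublets among dual-alpha cells was not tested. Alpha chains shared between TRB clonotypes were few. Of the 245 dual-alpha clonotypes without an iNKT-type chain, the chain with more UMIs was shared with another TRB clonotype of the library in 5 (2.04%) and the other chain in 2 (0.816%), against 45 of 2228 chains of single-alpha clonotypes (2.02%). Of 5887 barcodes 21 were found in 2 or more libraries, 4 of them dual-alpha, and none of these had the same beta chain in both. Libraries held 7683 to 31936 UMIs in productive chains, and dual-alpha counts of 22 to 144 cells limit the precision of each library's share.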

How the data were processed

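TCR chains of 8 libraries were analysed; the 8 RNA libraries were not analysed here. Per the labels' protocols, dissociated tumour cells were loaded on a 10x droplet system capturing 5′ transcript ends. The submitters' processing notes name Cell Ranger 3.1.0, CASAVA 1.8, Seurat 4.0.0, R 4.1.2 and the build GRCm38 (mm10), with no roles. The deposited contig tables give whole-number counts of UMIs per contig, not normalized, per the file headers; contig length and other deposited descriptors were not compared.

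Productive, high-confidence contigs of called cells were kept, with no UMI minimum and no doublet caller. TRAV copies of the duplicated locus (D or N in the name) were merged for segment use. Positions are those of RefSeq genes of GRCm38.p6, found for all 131 segments seen, with each V placed at the copy named in its contig. A TRB clonotype is counted within a library. Distances between cells are over all pairs of a first and a second alpha chain of different TRB clonotypes of a library. Library values were compared with two-sided exact permutations (36 relabelings, smallest p 0.0556) or sign flips over 8 libraries (256, smallest p 0.00781), with Benjamini-Hochberg adjustment over 6. Segments with 10 or more chains were tested with edgeR 4.0.16 in R 4.3.3 on chain counts, with the chain total as offset, and checked with DESeq2 1.42.0; code was tested on simulated data. Thinning gives the expected share when 4 TRA UMIs are drawn from each cell that has at least 4 over its alpha chains. Zero counts allow up to 3 counts. Named segments pass an adjusted p of 0.05, or have the 6 smallest p where fewer than 6 pass; named pairs are the largest TRB clonotype of each library and the 5 most frequent J and V pairs. The members, lists and tests were chosen with earlier results of these data known. No productive TRG, TRD or immunoglobulin chain was listed in a called cell.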

Additional observations from a re-analysis of the deposited data

How the results depend on the processing

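The lower iNKT-type share and the shorter J distance within a cell kept their direction and their side of the threshold in each alternative run. No difference between days or genotypes in the 6 library measures could reach 0.05 by exact permutation. KO minus CON turned with chains thinned to 4 TRA UMIs for the share of clonotypes (0.24 points), without the largest dual-alpha clonotype of each library for the share of cells (0.89 points) and J distance (-0.85 kb), with each TRB clonotype counted once for J distance (-0.28 kb), and with pairs of the same V and J removed for the iNKT-type share (0.048 points). Without those largest clonotypes, an alternative chosen after seeing the data, the day difference in log2 UMI ratio was -0.0056 and the difference between days in KO minus CON was 3.104 points for the share of cells, -0.016 for the log2 ratio, -1.33 kb for J distance, -2.98 points for the iNKT-type share and 12.7 points for the expanded share. That last contrast was -0.013 for the log2 ratio, -0.69 kb and -1.27 points for the iNKT-type share with clonotypes counted once, and -0.15 kb with chains of 2 or more UMIs. The expanded share of dual-alpha minus single-alpha cells was -6.68 points without the largest clonotypes. Mean J position was no longer past the threshold without those (-2.10 kb), with clonotypes counted once (-1.58 kb) or without iNKT-type cells (-3.62 kb), nor was V distance without iNKT-type cells (-57.4 kb) or with each cell counted (-28.1 kb). The 5 segments between dual-alpha and single-alpha cells became 3 with DESeq2, with TMM factors or with each cell counted. They became 2 with TRAV copies kept apart and 1 without iNKT-type cells. That last setting removes every cell with TRAV11 joined to TRAJ18, and TRAV11 (1.94) and TRAJ18 (0.92) turned sign in it. The cause of these changes was not tested.

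Leaving out 1 library gave 3 to 6 segments, mean J position -6.22 to -4.20 kb and V distance -60.7 to -44.0 kb, where 7 libraries allow no exact p below 0.0156. KO minus CON was -3.74 to 0.30 points for the share of cells, -1.15 to 0.24 for clonotypes, -0.088 to 0.050 for the log2 ratio, -0.15 to 0.97 kb for J distance and -2.20 to 2.19 points for the iNKT-type share. Its difference between days was -6.12 to 1.96, -0.84 to 1.94, -0.10 to 0.17, -0.51 to 1.73 kb and -4.19 to 4.60 points in the same order, and -18.1 to 7.83 points for the expanded share. Same-numbered libraries share only a number: their deviations in segment shares correlated at -0.13 (day 14) and -0.24 (day 5) between KO and CON and at -0.06 (KO) and 0.04 (CON) between days. With a replicate block the day difference in the share of cells stayed 7.48 points (exact permutation p = 0.125, the smallest that allows), and 0 segments were called. The number of libraries sets the smallest p; the 22 dual-alpha cells of the smallest library limit the precision of its own values.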

Other observations

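Among the 220 clonotypes of dual-alpha cells in which the alpha chains had unequal UMIs, the chain with more UMIs used the J nearer the V segments in 102 and the J farther from them in 104, and the same J in 14. The median J position was 37.3 kb from TRAJ61 for the chain with more UMIs and 37.3 kb for the other. Alpha CDR3s averaged 13.7 residues ± 0.116 in dual-alpha and 13.6 ± 0.0935 in single-alpha cells (SD, n = 8), a difference of 0.10 residues (exact sign-flip permutation p = 0.109).

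TRAJ35 was on the chain with more UMIs in 5 of 11 clonotypes, on the other in 1 and on a chain of equal UMIs in 5. Dual-alpha cells in clonotypes of 1 cell made up 10.3% and 7.91% of such cells in KO and 8.87% and 9.43% in CON at day 14, against 5.93% and 8.55% in KO and 8.39% and 6.97% in CON at day 5.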
